A study of Mus musculus with 14 samples.

Results

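The comparison described here set MC-38 cells from lung tumours of PAD4 knockout (KO) mice with laparotomy against the same cells from tumours of wild-type (WT) mice with laparotomy. It rests on 4 of the 14 libraries in the series, chosen by their labelled host genotype and treatment, with 2 libraries in each group and every gene in the deposited tables. The hosts of both groups had laparotomy, an opening of the abdominal wall, on days 0 and 10. MC-38 is a mouse colon cancer line; here it carried green fluorescent protein, by which the cancer cells were sorted from lung tumours on day 30. The labels give the cells themselves as WT in all groups, so only the host differed in genotype. Libraries from KO control hosts and from WT control hosts without surgery, 2 each, were used to estimate the spread between libraries and to ask whether the genotype difference depended on surgery. Another 6 libraries came from MC-38 cultures, 3 given chromatin of neutrophil extracellular traps (NETs) and 3 controls, and served only as reference levels and as a source of gene lists. The age, sex and strain of the mice, the knockout allele and the number of animals behind a library are not known here. The p-values therefore measure the spread between these libraries, which may be technical.

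PAD4 is encoded by Padi4 and belongs to the peptidylarginine deiminases, which convert arginine in proteins to citrulline. In neutrophils it citrullinates histones, which loosens chromatin and lets the cell expel it as a web of DNA and granule proteins, the NET. Mice without PAD4 form few NETs, and surgery is a known trigger of NET release. The series asks whether NETs formed after surgery change the lipid metabolism of cancer cells. Laparotomy in KO hosts set against laparotomy in WT hosts is the comparison in which hosts with and without PAD4 received the same surgery.

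The total gene count was 15 and 15.3 M in the KO laparotomy libraries and 22.9 and 31.3 M in the WT laparotomy libraries, within a range of 10.8 to 31.3 M over the 8 tumour libraries. Replicates of a group were not copies of each other. The correlation of log2 counts scaled to library size (CPM, the field's unit of counts per M reads in genes) across genes was 0.965 between the KO laparotomy libraries and 0.990 between the WT laparotomy libraries, the closest of the 4 pairs. KO laparotomy replicate 1 lay closer to WT control replicate 1 (0.978) than to its own partner. It was also slightly closer to WT laparotomy replicate 2 (0.967), a library of the group it is compared with. KO control replicate 2 and WT control replicate 2 stood apart by their markers of other lung cells: 14 lung epithelial genes summed to 439 CPM in the KO control and 853 CPM in the WT control, against 20.9 to 152 CPM in the other 6 tumour libraries. These 2 libraries enter the comparison only through the estimate of the spread. The number that each deposited table carries in its name occurs more than once for WT laparotomy (4 and 5), and not for KO laparotomy (7 and 8). What the number stands for is not known here. Whether the libraries were sequenced in separate runs is not given in the sources used here, and any such difference cannot be told apart from the genotype.

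Of 14615 genes tested with edgeR over the 8 tumour libraries, 3 passed an adjusted p of 0.05, which is 0.0205%. All 3 were higher in KO laparotomy tumours, and no gene passed in the other direction. At an unadjusted p under 0.05 there were 1954 genes (13.4%), 1033 of them higher (7.07%) and 921 lower (6.3%) in KO laparotomy. DESeq2 on the same libraries called 566 of 13198 genes with an adjusted p (4.29%): 359 higher (2.72%) and 207 lower (1.57%) in KO laparotomy. A fit of the 4 laparotomy libraries alone called 220 of 13405 genes (1.64%), 145 higher (1.08%) and 75 lower (0.559%), and 175 genes were called both there and by DESeq2. The edgeR count turned on the control libraries: it was 112 without WT control replicate 1, 121 without WT control replicate 2, and 0 without either KO control library or either WT laparotomy library. The cause of the gap between the tools was not tested. In what follows, "passed" without a tool's name means the edgeR fit of 8 libraries, and DESeq2 calls are given as such. Over all genes the log2 fold changes had a median of 0.01, and 51.1% of them were above 0. The libraries of the groups did not overlap in 26.2% of genes in the direction of higher KO laparotomy values and in 26.1% in the other; with a fitted fold of at least 2 as well, these shares were 8.18% and 3.37%.

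**Figure D1:**
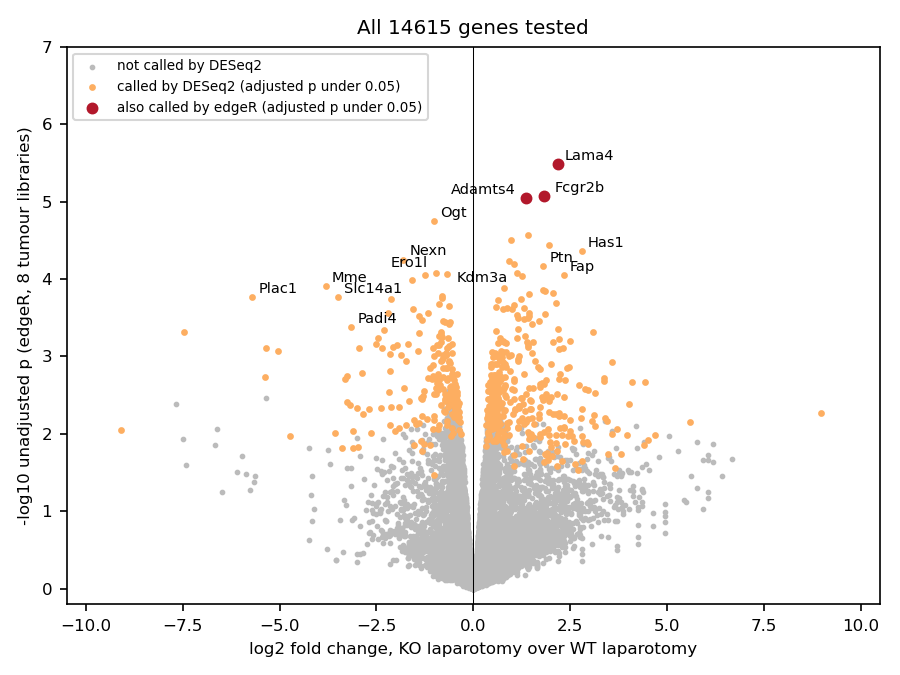
Each point is 1 of 14615 genes; the x axis gives the log2 fold change of KO laparotomy over WT laparotomy and the y axis the negative log10 of the unadjusted edgeR p. The 3 genes that passed in edgeR (dark red) lie on the side of higher values in KO laparotomy, while the 566 DESeq2 calls (orange) lie on both sides.

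Lama4 (chromosome 10, 38965515 to 39110188, GRCm38) encodes the alpha-4 chain of laminin, a component of basement membranes around vessels and muscle. It stood at 295 and 314 CPM in the KO laparotomy libraries, against 78.0 and 54.5 CPM in the WT laparotomy libraries. The groups were far apart: KO laparotomy was 4.60 times as high, a log2 difference of 2.20 ± 0.20 (SE; adjusted p = 0.0437). In controls Lama4 was at 158 and 159 CPM in KO hosts and 309 and 233 CPM in WT hosts, so that the WT laparotomy libraries were the lowest of all. Cultured control MC-38 cells held 0.0357 ± 0.0619 CPM (SD, n = 3), close to none.

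Fcgr2b (chromosome 1, 170958617 to 170976547) encodes the inhibitory receptor for the constant part of immunoglobulin G, known from B cells, myeloid cells and some endothelium. Its level was 40.3 and 42 CPM in KO laparotomy and 12.4 and 10.9 CPM in WT laparotomy (log2 fold change 1.82 ± 0.18, adjusted p = 0.0437). Control libraries held 23.2 and 28.8 CPM in KO hosts and 33.5 and 42.9 CPM in WT hosts, and again the WT laparotomy libraries were lowest. Control cultures were at 0.184 ± 0.125 CPM (SD, n = 3).

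Adamts4 (chromosome 1, 171250421 to 171260637), a secreted protease that cuts aggrecan and versican in the matrix, rose to 169 and 190 CPM in KO laparotomy, against 71.5 and 66.9 CPM in WT laparotomy (1.37 ± 0.14, adjusted p = 0.0437). Both KO laparotomy libraries lay above the other 6 tumour libraries, which reached 107 CPM. Unlike Lama4 and Fcgr2b, Adamts4 was well expressed in culture, at 26.7 ± 1.93 CPM (SD, n = 3). In bulk RNA, a change in the number of cells of a type and a change in RNA per cell cannot be told apart.

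The call of all 3 genes hung on single libraries, and that of Fcgr2b also on the scaling and the filter, as given below. Leaving out KO laparotomy replicate 1 gave adjusted p-values of 0.0536 for Lama4, 0.0536 for Fcgr2b and 0.0513 for Adamts4, with log2 fold changes of 2.25, 1.85 and 1.46. Without KO laparotomy replicate 2 all 3 stood at 0.0996. None of them passed without either WT laparotomy library (0.0757 to 0.496) or either KO control library (0.0617 to 0.0654), and all 3 passed without either WT control library (0.0103 to 0.0316). Their fold changes moved little: over 17 alternatives the log2 value ran from 1.96 to 2.48 for Lama4, from 1.72 to 1.92 for Fcgr2b and from 1.27 to 1.46 for Adamts4.

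Next in order of p came 7 genes higher in KO laparotomy with an adjusted p of 0.0740, which did not pass in edgeR and passed in DESeq2. Has1, a synthase of the matrix polymer hyaluronan, had 35.6 and 28.7 CPM in KO laparotomy and 4.23 and 4.98 CPM in WT laparotomy (2.80 ± 0.35). Ptn encodes pleiotrophin, a secreted growth factor, and was at 160 and 120 CPM against 46.0 and 34.4 CPM in WT laparotomy (1.80 ± 0.24). C1ra, a protease of the first complement component, was at 69.8 and 89.3 CPM in KO laparotomy and 32.6 and 27.8 CPM in WT laparotomy. Igfbp6, which binds insulin-like growth factor 2, held 163 and 149 CPM in KO laparotomy and 82.1 and 82.3 CPM in WT laparotomy.

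Nfatc4 encodes a transcription factor that calcineurin activates. Its KO laparotomy libraries stood at 46.4 and 48.9 CPM, its WT laparotomy libraries at 23.6 and 22.4 CPM. Ecscr, a surface protein of endothelial cells, had 79.1 and 75.3 CPM in KO laparotomy against 41.3 and 36.8 CPM in WT laparotomy. Olfr810, an olfactory receptor gene, had 29.9 and 31.1 CPM in KO laparotomy against 8.67 and 7.06 CPM in WT laparotomy, and was at 0 in all 6 cultures. Of these 10 genes on the higher side, the WT laparotomy libraries were below the other 6 tumour libraries in 5, against 8.77% of all genes. The KO laparotomy libraries were above the other 6 in 5, against 4.43% of all genes. Since the 10 were chosen for their p in this contrast, these counts are a description.

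On the lower side the smallest p belonged to Ogt (chromosome X, 101640060 to 101684351), the enzyme that attaches N-acetylglucosamine to serine and threonine of nuclear and cytosolic proteins. It was at 182 and 197 CPM in KO laparotomy and at 413 and 353 CPM in WT laparotomy, with a log2 fold change of -1.02 ± 0.11 (adjusted p = 0.0658; DESeq2 4.87e-12). Controls lay near the KO laparotomy level, at 225 and 238 CPM in KO hosts and 205 and 215 CPM in WT hosts.

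Another 9 genes on that side had adjusted p-values of 0.0740 to 0.0849 in edgeR and passed in DESeq2. Ankrd1, a target gene of the YAP and TEAD factors in many cell types, had 40.6 and 25.2 CPM in KO laparotomy against 92.3 and 103 CPM in WT laparotomy (-1.57 ± 0.22). Nexn, an actin-binding protein of muscle and other contractile cells, had 8.27 and 9.17 CPM in KO laparotomy against 35.4 and 25.9 CPM in WT laparotomy. Mme, the cell-surface peptidase neprilysin, had 1.55 and 2.43 CPM in KO laparotomy against 36.2 and 19.8 CPM in WT laparotomy. The groups did not overlap in these 3 genes, as the choice of genes required.

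Slc14a1, a urea transporter, held 1.95 and 2.97 CPM in KO laparotomy and 33.9 and 21.4 CPM in WT laparotomy (-3.49 ± 0.53). Plac1, a gene known from trophoblast and many tumours, held 0.202 and 0 CPM in KO laparotomy and 6.19 and 4.95 CPM in WT laparotomy. Appl2, an adaptor protein of endosomes, stood at 26.1 and 20.5 CPM in KO laparotomy and 60.0 and 50.3 CPM in WT laparotomy. Atp11b, a phospholipid flippase subunit, was at 72.6 and 76.2 CPM in KO laparotomy and 138 and 123 CPM in WT laparotomy. The remaining pair, Ero1l and Kdm3a, belongs to the hypoxia list below. The WT laparotomy libraries were above the other 6 tumour libraries in 7 of these 10 genes, against 9.7% of all genes, and the KO laparotomy libraries were below the other 6 in 5, against 3.72%. These counts too describe genes chosen for their p in this contrast.

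**Figure D2:**
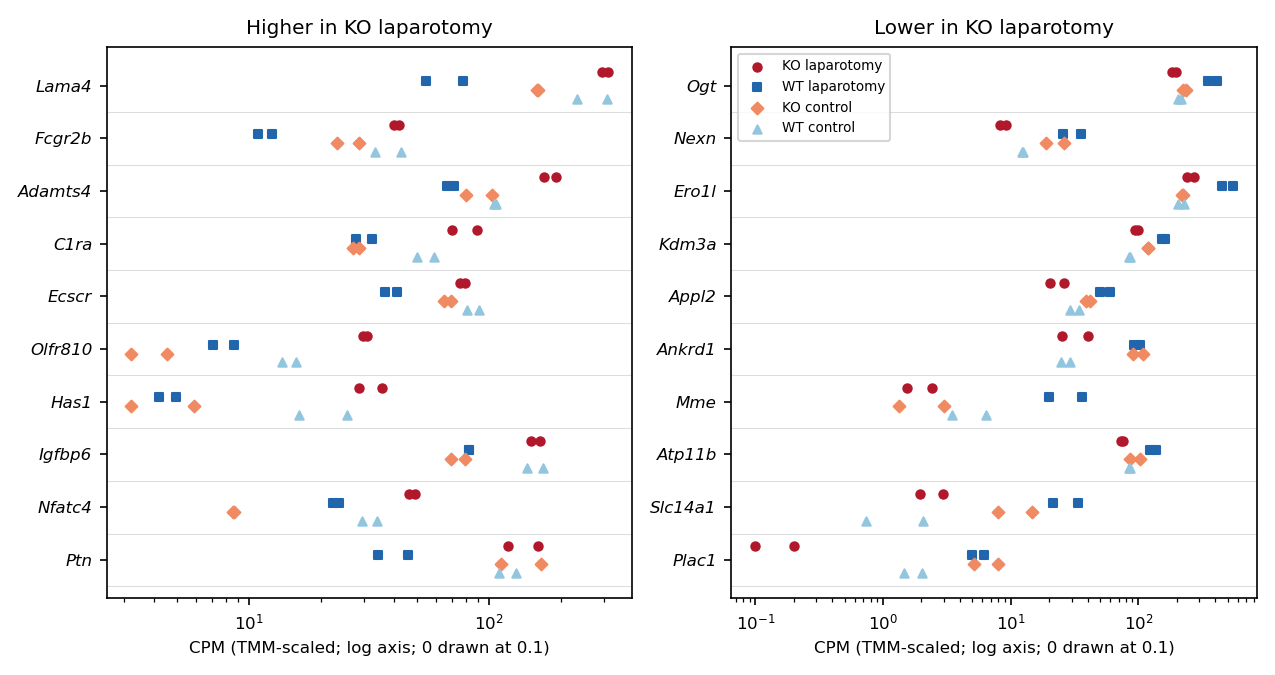
CPM on a log axis for the 10 genes of smallest p in each direction, with 2 points per group of tumour libraries; a value of 0 is drawn at 0.1. KO laparotomy (circles) and WT laparotomy (squares) are apart in every gene, as the choice of genes required, while the controls lie on either side: Ogt and Ero1l controls sit near the KO laparotomy values, and Plac1 controls of KO hosts sit near the WT laparotomy values.

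Padi4 (chromosome 4, 140745865 to 140774236), the gene removed from the KO hosts, does not check the labels here, because MC-38 cells carry their own copy. Padi4 RNA was at 3.97 and 2.83 CPM in KO laparotomy and at 30.7 and 30.3 CPM in WT laparotomy (-3.16 ± 0.55; adjusted p = 0.101, DESeq2 6.28e-07). Without surgery it stood at 5.47 and 2.08 CPM in KO hosts and 3.20 and 7.49 CPM in WT hosts. Only the 2 WT laparotomy libraries were thus high among the 8 tumour libraries, and they were below the 67.2 ± 4.31 CPM of control cultures (SD, n = 3).

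The neighbouring family members had the same order. Padi2, the most widely expressed deiminase, held 1.34 and 1.96 CPM in KO laparotomy against 17.7 and 15.3 CPM in WT laparotomy (-3.32 ± 0.74; DESeq2 adjusted p = 0.000193). Padi3, known from hair follicles, held 0.605 and 1.01 CPM in KO laparotomy against 6.23 and 5.70 CPM in WT laparotomy (-2.88 ± 0.62; DESeq2 adjusted p = 0.00277). For all 3 the WT laparotomy libraries lay above the other 6 tumour libraries, while Padi1 and Padi6 were too low to be tested. Around this gene cluster, 14 other tested genes lie within 500 kb. Their median log2 fold change was -0.06, with a range from -1.51 to 1.18. In DESeq2 1 of them passed, Epha2 (-0.92), against 4.29% of all genes in either direction.

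The hypoxia list held genes that the hypoxia-inducible factors HIF-1 and HIF-2 are known to turn on when oxygen is low. These factors bind DNA at the core letters ACGTG or GCGTG. Their targets move the cell from oxidative to glycolytic metabolism, limit mitochondria and signal to vessels. All 24 members were tested, with a median log2 fold change of -0.56, and 19 of 24 were below 0, against 0.01 for the median of all genes. No member passed in edgeR; in DESeq2 9 of 24 were lower in KO laparotomy (1.57% of all genes) and 0 were higher. The libraries did not overlap in 17 members on the lower side and 2 on the higher side, against 26.1% and 26.2% of all genes. WT laparotomy libraries lay above the other 6 tumour libraries in 16 of 24 members, against 9.7% of all genes, and KO laparotomy libraries below the other 6 in 0 (3.72% of all genes).

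Promoter windows of 4 members that passed in DESeq2 are shown because this list has a known DNA motif. Each is 300 bases long, from 250 before to 50 after the start of the RefSeq transcript, read 5′ to 3′ along the gene's strand, which was the minus strand for all 4 (GRCm38.p6). Capitals mark ACGTG and GCGTG on either strand, so that CACGT and CACGC are marked too; matches of both strands overlap in CACGTG. The motif was found in 43.8% of all 32851 RefSeq windows and in at least 1 window of 65.0% of the tested genes that have a window. All 20 of the hypoxia genes with a window had at least 1 match, and 25 of their 30 windows held one. The window shown for a gene is the one with the most matches. A match describes the letters only and does not show that a factor bound there.
Bnip3, chr7:138909457-138909756: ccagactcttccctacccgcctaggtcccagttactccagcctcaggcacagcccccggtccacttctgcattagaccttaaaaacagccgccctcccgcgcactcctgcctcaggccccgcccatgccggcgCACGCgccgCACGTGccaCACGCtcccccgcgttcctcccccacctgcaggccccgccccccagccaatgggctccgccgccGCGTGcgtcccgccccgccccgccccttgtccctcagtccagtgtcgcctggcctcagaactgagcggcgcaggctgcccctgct
Ddit4, chr10:59951721-59952020: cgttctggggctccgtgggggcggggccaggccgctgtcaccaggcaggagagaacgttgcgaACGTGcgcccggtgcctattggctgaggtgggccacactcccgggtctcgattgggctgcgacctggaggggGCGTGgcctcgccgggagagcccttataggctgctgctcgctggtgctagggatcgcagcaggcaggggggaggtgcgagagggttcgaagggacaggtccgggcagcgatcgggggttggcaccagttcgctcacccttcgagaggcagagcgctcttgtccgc
Ero1l, chr14:45318523-45318822: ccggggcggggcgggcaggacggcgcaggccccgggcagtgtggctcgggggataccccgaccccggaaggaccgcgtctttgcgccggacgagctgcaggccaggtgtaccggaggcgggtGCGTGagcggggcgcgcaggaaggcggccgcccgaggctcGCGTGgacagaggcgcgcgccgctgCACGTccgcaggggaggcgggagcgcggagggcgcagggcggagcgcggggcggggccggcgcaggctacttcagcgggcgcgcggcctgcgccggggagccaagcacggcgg
Kdm3a, chr6:71632868-71633167: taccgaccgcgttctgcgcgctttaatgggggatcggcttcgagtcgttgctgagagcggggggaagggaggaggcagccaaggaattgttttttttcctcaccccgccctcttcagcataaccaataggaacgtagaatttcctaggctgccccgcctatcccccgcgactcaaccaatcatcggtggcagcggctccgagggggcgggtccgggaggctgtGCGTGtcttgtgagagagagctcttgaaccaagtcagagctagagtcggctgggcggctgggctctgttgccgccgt

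Ero1l, an oxidase that forms disulfide bonds in the endoplasmic reticulum, had 3 matches in its window. It was at 240 and 273 CPM in KO laparotomy and at 553 and 449 CPM in WT laparotomy (-0.96 ± 0.13; adjusted p = 0.0740, DESeq2 1.3e-08). Control tumours stood at 218 and 225 CPM in KO hosts and 229 and 203 CPM in WT hosts, beside the KO laparotomy level. Kdm3a, a demethylase of histone H3, had at most 1 match in any of its 3 windows. Its values were 94.6 and 99.6 CPM in KO laparotomy and 163 and 152 CPM in WT laparotomy (-0.69 ± 0.10; adjusted p = 0.0740, DESeq2 1.78e-06). For Kdm3a the controls differed by host, with 120 and 120 CPM in KO hosts and 85.2 and 86.3 CPM in WT hosts.

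Bnip3, which marks mitochondria for removal, carried 5 matches, the most of the 4 windows shown. It had 123 and 187 CPM in KO laparotomy and 331 and 248 CPM in WT laparotomy, with controls of 120 and 106 CPM in KO hosts and 129 and 120 CPM in WT hosts (-0.90 ± 0.21). Its relative Bnip3l had 109 and 124 CPM in KO laparotomy and 186 and 160 CPM in WT laparotomy. Ddit4, an inhibitor of the mTOR kinase complex, had 2 matches and stood at 238 and 228 CPM in KO laparotomy and 360 and 311 CPM in WT laparotomy (-0.53 ± 0.12).

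The lowest log2 fold change of the list was that of Adm, which encodes the vessel-dilating peptide adrenomedullin. It was at 3.29 and 3.98 CPM in KO laparotomy and at 19.3 and 13.7 CPM in WT laparotomy (-2.18 ± 0.52). The other DESeq2 calls were Stc2 (-1.20), Egln1, an oxygen sensor that marks HIF for destruction (-0.69), and the adenylate kinase Ak4 (-0.56). Some well-known targets passed with neither tool. Vegfa, the main vessel growth factor, was at 255 and 299 CPM in KO laparotomy and 265 and 243 CPM in WT laparotomy, and the collagen hydroxylase subunit P4ha1 was at 439 and 428 CPM against 367 and 370 CPM in WT laparotomy. Car9, a carbonic anhydrase, had a log2 fold change of -1.0 ± 0.46, with 19.8 and 47.7 CPM in KO laparotomy against 71.6 and 63.7 CPM in WT laparotomy, and did not pass with either tool.

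Of the 18 glycolysis genes, 15 were below 0, with a median of -0.19. DESeq2 called 2 of them lower (1.57% of all genes). They were Pfkl, the liver-type phosphofructokinase, with 309 and 275 CPM in KO laparotomy against 411 and 412 CPM in WT laparotomy, and Pgk1, phosphoglycerate kinase, with 555 and 588 CPM against 727 and 698 CPM in WT laparotomy. Gapdh was at 2150 and 2210 CPM in KO laparotomy and 2810 and 2670 CPM in WT laparotomy (-0.33 ± 0.14, not called by either tool). WT laparotomy libraries were above the other 6 tumour libraries in 10 of 18, against 9.7% of all genes. Eno1 was listed at under 1 CPM in all 4 libraries. Near-identical copies of this gene are known, so that its value is uncertain; how its reads were assigned was not tested. Over 17 alternatives the list median ran from -0.68 to -0.45 for hypoxia and from -0.28 to -0.15 for glycolysis.

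**Figure D3:**
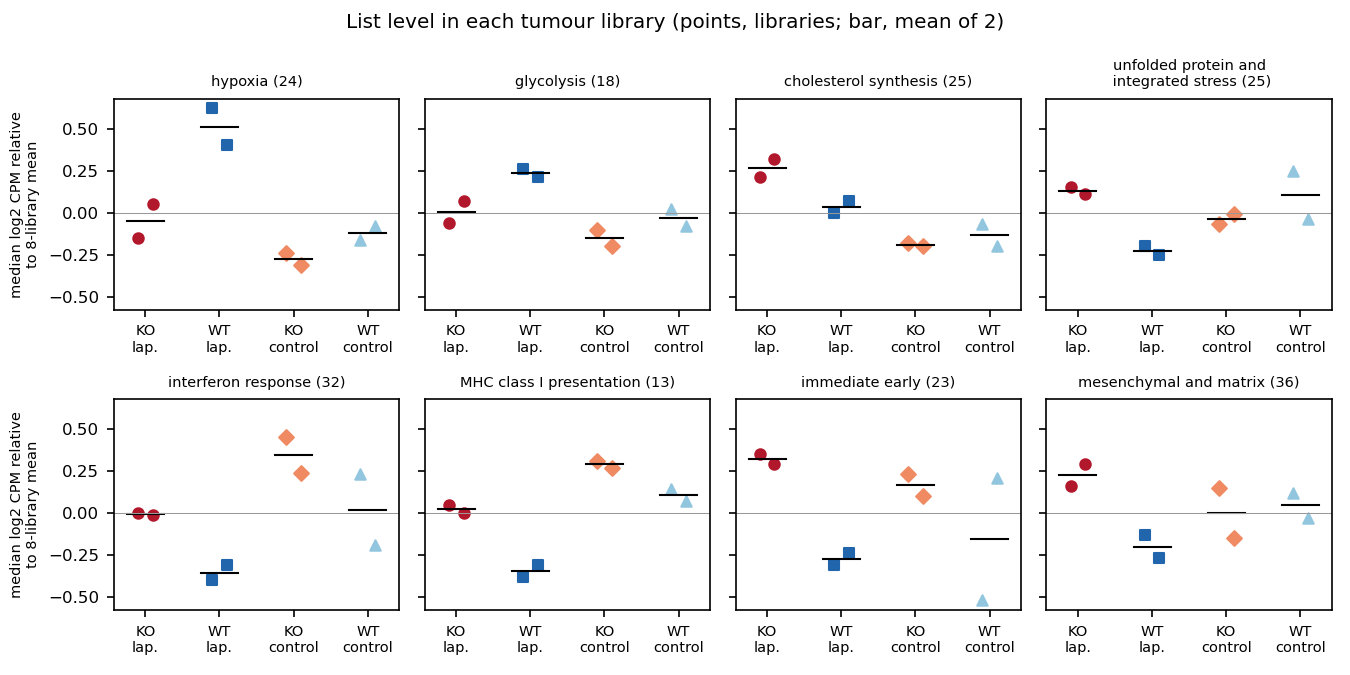
Each point is a tumour library and gives the median, over the tested members of a list, of log2 CPM relative to the gene's mean over 8 libraries; bars are means of 2 libraries. In hypoxia the WT laparotomy libraries sit at 0.62 and 0.40 and the KO laparotomy libraries at -0.15 and 0.05, near the controls; in cholesterol synthesis the KO laparotomy libraries are the highest, at 0.21 and 0.32; in interferon response the WT laparotomy libraries are the lowest, at -0.40 and -0.31.

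Lipid metabolism, the subject of the series, differed in few members. Cholesterol synthesis runs from acetyl-CoA through mevalonate to the sterol ring and is set by the factor SREBP2. All 25 members were tested, with a median of 0.23; 20 were above 0 and the libraries did not overlap in 16 on the higher side, against 26.2% of all genes. None passed in edgeR, and in DESeq2 2 of 25 were higher and 0 lower, against 2.72% and 1.57% of all genes. Cyp51, which removes a methyl group from lanosterol, had 333 and 367 CPM in KO laparotomy and 228 and 231 CPM in WT laparotomy (0.61 ± 0.12; adjusted p = 0.114, DESeq2 0.000243). Its controls lay near the WT laparotomy level, with 224 and 224 CPM in KO hosts and 259 and 211 CPM in WT hosts.

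In this list the KO laparotomy libraries were above the other 6 tumour libraries in 14 of 25 members, against 4.43% of all genes, the reverse of the pattern of the hypoxia list. Hmgcs1, which makes the precursor of mevalonate, was at 157 and 276 CPM in KO laparotomy and 151 and 132 CPM in WT laparotomy; KO laparotomy replicate 2 set that difference. Over 17 alternatives the list median lay between 0.19 and 0.30.

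Genes of fatty acid handling showed no common direction. The medians were -0.05 for 21 genes of fatty acid synthesis, -0.05 for 22 genes of uptake and droplets and 0.03 for 24 genes of oxidation. In DESeq2 the synthesis list had 1 lower member (1.57% of all genes), the elongase Elovl7. It was at 1.81 and 2.02 CPM in KO laparotomy against 6.89 and 7.75 CPM in WT laparotomy. Scd1, which puts the double bond into stearate, was at 232 and 205 CPM in KO laparotomy and 166 and 174 CPM in WT laparotomy, and passed with neither tool. The uptake list held 2 lower members and 1 higher in DESeq2, against 1.57% and 2.72% of all genes. Vldlr, a lipoprotein receptor, was at 136 and 109 CPM in KO laparotomy and 236 and 215 CPM in WT laparotomy (-0.88 ± 0.17), and Lrp1, a large receptor of the same family, was at 520 and 453 CPM in KO laparotomy and 290 and 262 CPM in WT laparotomy (0.82 ± 0.19). No oxidation gene passed with either tool. Among 10 genes of sterol efflux, with a median of 0.32, DESeq2 called 2 higher (2.72% of all genes). Npc2, a carrier of lysosomal cholesterol, was at 268 and 293 CPM in KO laparotomy against 225 and 212 CPM in WT laparotomy. Ch25h was at 2.96 and 11.1 CPM in KO laparotomy against 1.26 and 0.378 CPM in WT laparotomy.

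Eicosanoid synthesis turns arachidonic acid into prostaglandins and leukotrienes. Its 16 tested members had a median of 1.11, which was 0.62 without KO laparotomy replicate 2 and 0.19 in the fit of the 4 laparotomy libraries alone. DESeq2 called 2 of them higher (2.72% of all genes). Ptgs1, the constitutive cyclooxygenase, had 51.2 and 77.2 CPM in KO laparotomy and 14.3 and 8.60 CPM in WT laparotomy (2.49 ± 0.44; adjusted p = 0.111). Alox5ap, which presents arachidonic acid to 5-lipoxygenase, had 133 and 116 CPM in KO laparotomy and 51.3 and 36.2 CPM in WT laparotomy (1.51 ± 0.25; adjusted p = 0.0940). Both are also known from myeloid cells, and 17 monocyte and macrophage markers summed to 490 and 340 CPM in KO laparotomy and 130 and 117 CPM in WT laparotomy. The part of such cells in the result was not tested. Alox5ap was at 8.44 ± 1.45 CPM and Ptgs1 at 6.13 ± 0.771 CPM in control cultures (SD, n = 3).

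Interferon signalling turns on antiviral genes, guanylate-binding proteins and the presentation of peptides on MHC class I. Of 32 interferon genes, 30 were above 0, with a median of 0.35, and the libraries did not overlap in 29 on the higher side, against 26.2% of all genes. None passed in edgeR; DESeq2 called 8 higher and 0 lower, against 2.72% and 1.57% of all genes. Iigp1, a GTPase that attacks vacuoles of parasites, had 127 and 132 CPM in KO laparotomy against 49.2 and 58.8 CPM in WT laparotomy (1.26 ± 0.18; adjusted p = 0.0740, DESeq2 1.3e-08). Cxcl10, which draws T cells, had 324 and 410 CPM in KO laparotomy against 153 and 218 CPM in WT laparotomy (0.98 ± 0.19; adjusted p = 0.114, DESeq2 5.11e-05). Without surgery Cxcl10 differed by host as well, at 350 and 337 CPM in KO controls against 198 and 161 CPM in WT controls (0.94 ± 0.19). The list median for KO controls over WT controls was 0.31. Zbp1, a sensor of unusual nucleic acids, had 445 and 668 CPM in KO laparotomy against 304 and 288 CPM in WT laparotomy (0.91 ± 0.27; adjusted p = 0.231, DESeq2 0.00561).

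All 13 tested genes of MHC class I presentation were above 0, with a median of 0.34, and DESeq2 called 4 of them higher (2.72% of all genes). The heavy chain H2-D1 was at 670 and 693 CPM in KO laparotomy and 424 and 488 CPM in WT laparotomy (0.58 ± 0.10; adjusted p = 0.106, DESeq2 8.46e-06). Its controls were at 666 and 663 CPM in KO hosts and 652 and 654 CPM in WT hosts. In this gene, then, the WT laparotomy libraries were low, and the other 6 lay close together. The same order, with both WT laparotomy libraries below the other 6, held in 22 of 32 interferon genes and 10 of 13 MHC class I genes, against 8.77% of all genes.

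The unfolded protein response raises the folding capacity of the endoplasmic reticulum, and the integrated stress response raises amino acid synthesis through ATF4. Across the 25 genes of both arms the median was 0.29, and DESeq2 called 7 higher and 1 lower, against 2.72% and 1.57% of all genes; a single lower call is close to that background. The 7 were all folding genes of the reticulum or their regulator. Hspa5, its main chaperone, had 3050 and 3180 CPM in KO laparotomy and 2200 and 2130 CPM in WT laparotomy (0.53 ± 0.11; adjusted p = 0.144, DESeq2 0.000339). Creld2 had 147 and 148 CPM in KO laparotomy and 77.9 and 82.5 CPM in WT laparotomy (0.88 ± 0.14; adjusted p = 0.0856). Manf (0.67), Dnajb11 (0.56), Pdia3 (0.49), Xbp1 (0.42) and Calr (0.39) were the others. The lower call was Phgdh, the first enzyme of serine synthesis, at 155 and 141 CPM in KO laparotomy against 265 and 240 CPM in WT laparotomy (-0.77 ± 0.16). The ATF4 targets Trib3 (-0.43), Psat1 (-0.32) and Asns (-0.24) had negative values that passed with neither tool. They were exceptions in the list, where 20 of 25 members were above 0 and 5 below. WT laparotomy libraries were below the other 6 tumour libraries in 13 of 25 members, against 8.77% of all genes.

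Immediate early genes are switched on within minutes by growth factors, stress and tissue handling. Of 23 members 20 were above 0, with a median of 0.47, and DESeq2 called 4 higher (2.72% of all genes). Junb was at 902 and 911 CPM in KO laparotomy and 447 and 582 CPM in WT laparotomy (0.82 ± 0.19). Egr2 (1.27), Egr3 (1.54) and Ier2 (0.70) were the other calls, and Fos, at 1280 and 1230 CPM in KO laparotomy against 991 and 873 CPM in WT laparotomy, did not pass. These genes were far lower in control cultures, where Junb was at 69.5 ± 19.6 CPM (SD, n = 3). The 29 tested genes of NF-kB signalling and chemokines had a median of 0.56, with 4 DESeq2 calls, all higher, again against 2.72% of all genes. For KO controls over WT controls the median was 0.36 in this list and 0.33 in the immediate early list. Cxcl1, which draws neutrophils, had 307 and 370 CPM in KO laparotomy and 150 and 201 CPM in WT laparotomy (0.95 ± 0.23). Il6 had 20.2 and 14.4 CPM in KO laparotomy and 2.61 and 5.95 CPM in WT laparotomy (2.01 ± 0.49), and Tnf had 71.7 and 58.0 CPM in KO laparotomy and 26.1 and 35.9 CPM in WT laparotomy. The fourth was Nfkbie, an inhibitor of NF-kB (0.70 ± 0.13).

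Mesenchymal and matrix genes had a median of 0.43 over 36 members, and DESeq2 called 9 higher and 0 lower, against 2.72% and 1.57% of all genes. Cyr61, a YAP target that binds integrins, had 627 and 751 CPM in KO laparotomy and 379 and 423 CPM in WT laparotomy (0.78 ± 0.12; adjusted p = 0.0856), in the opposite direction to the YAP target Ankrd1. Cyr61 differed by host without surgery too, at 796 and 783 CPM in KO controls and 437 and 493 CPM in WT controls (0.76 ± 0.12). The transcription factor Zeb1 (0.66), the hyaluronan receptor Cd44 (0.48), fibronectin Fn1 (0.51), Timp1 (0.81), Mmp2 (0.86), Thbs1 (2.13) and the collagen chain Col5a2 (2.22) were also called. Several matrix genes differed more between the KO laparotomy replicates than between groups. Col3a1 was at 3480 and 8080 CPM in KO laparotomy against 2780 and 1900 CPM in WT laparotomy, and the fibroblast gene Lum was at 77.1 and 726 CPM against 102 and 67.4 CPM.

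Fibroblast and mural markers (14 genes) summed to 1550 and 3320 CPM in KO laparotomy and 1570 and 1110 CPM in WT laparotomy, against at most 158 CPM in the 6 cultures. Their part in the matrix values was not tested. DESeq2 called 4 of the 14 higher (2.72% of all genes), among them Fap, at 9.14 and 10.2 CPM in KO laparotomy against 2.18 and 1.67 CPM in WT laparotomy (2.33 ± 0.32), and Dpt, at 18.7 and 60.9 CPM against 7.71 and 7.24 CPM in WT laparotomy.

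**Figure D4:**
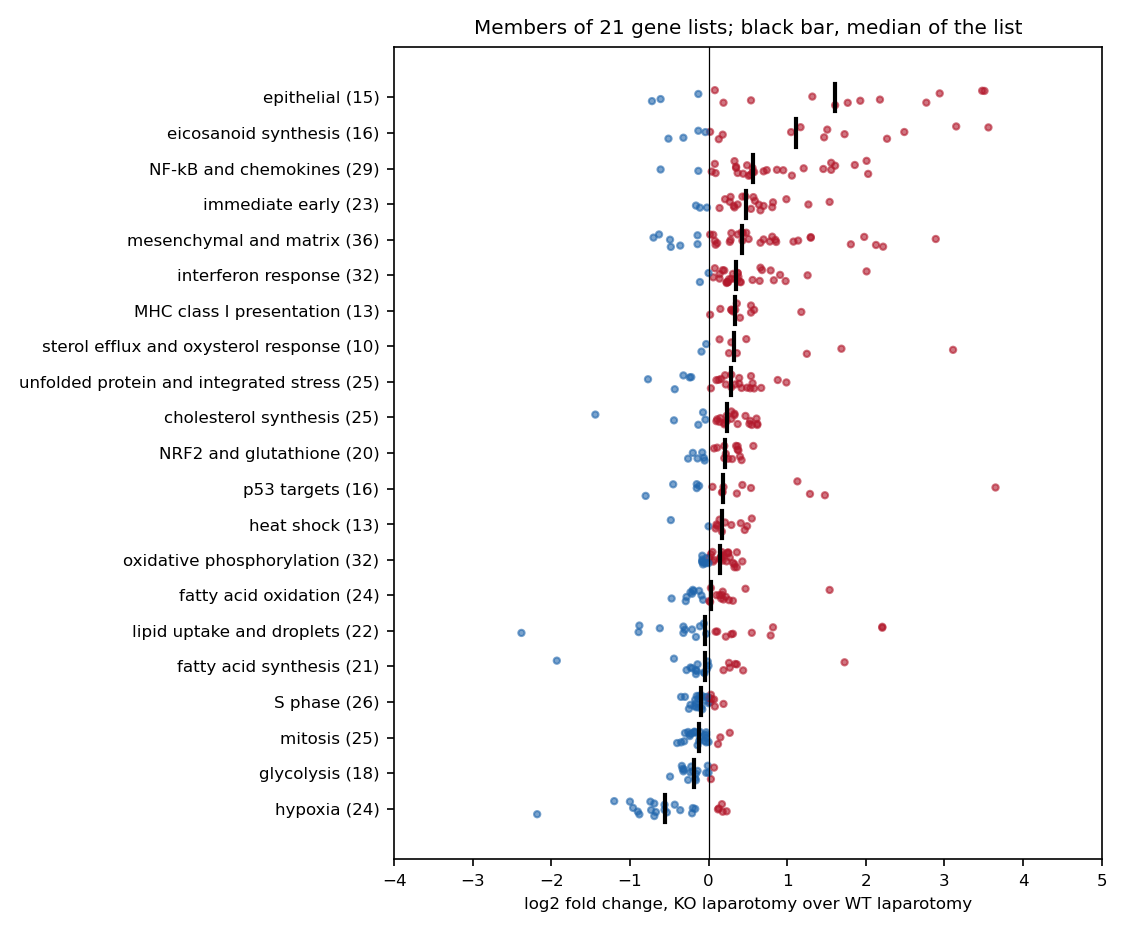
Log2 fold changes of KO laparotomy over WT laparotomy for the tested members of 21 gene lists (number in brackets), with the list median as a black bar. Hypoxia lies lowest, with a median of -0.56 and 19 of 24 members below 0; the epithelial and eicosanoid lists lie highest, with medians of 1.61 and 1.11.

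Of the remaining lists, most had medians near that of all genes. Proliferation genes had small values, mostly below 0: 19 of 26 S phase genes, with a median of -0.09, and 21 of 25 mitosis genes, with a median of -0.12, with no call by either tool. Oxidative phosphorylation had a median of 0.15 over 32 genes, the NRF2 and glutathione list 0.21 over 20, and heat shock 0.17 over 13, of which 12 were above 0, again with no call by either tool. Among 16 p53 targets, with a median of 0.18, DESeq2 called 1 higher (2.72% of all genes), the death receptor Fas. It was at 39.8 and 48.2 CPM in KO laparotomy against 20.9 and 19.2 CPM in WT laparotomy (1.13 ± 0.16, adjusted p = 0.0740). Epithelial genes had the highest median, 1.61 over 15, yet low levels. Cdh1, which encodes E-cadherin, was at 3.56 and 5.12 CPM in KO laparotomy and 0.436 and 0.819 CPM in WT laparotomy, and Krt8 at 4.84 and 10.3 CPM against 1.22 and 0.756 CPM. Control cultures held 0 CPM of Cdh1 and 0.165 ± 0.0651 CPM of Krt8 (SD, n = 3). Lung epithelial markers moved in the same direction, as given next, and their part was not tested.

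Markers of other cell types were mostly higher in KO laparotomy. The 14 lung epithelial genes summed to 111 and 103 CPM in KO laparotomy and to 20.9 and 30.5 CPM in WT laparotomy. All 14 had higher values in both KO laparotomy libraries than in either WT laparotomy library, against 26.2% of all genes. The 15 endothelial genes, with Pecam1, Cdh5 and Ecscr among them, summed to 251 and 226 CPM in KO laparotomy and to 123 and 121 CPM in WT laparotomy. Neutrophil genes, 13 in all, summed to 22.8 and 26.4 CPM in KO laparotomy and to 7.41 and 5.32 CPM in WT laparotomy. For S100a8 this meant 5.04 and 7.75 CPM in KO laparotomy and 1.96 and 1.89 CPM in WT laparotomy. Genes of dendritic cells and MHC class II (13) summed to 203 and 118 CPM in KO laparotomy and to 55.8 and 56.1 CPM in WT laparotomy.

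The lymphoid lists did not follow this order. The 16 genes of T and NK cells summed to 19.0 and 44.5 CPM in KO laparotomy and to 54.0 and 45.5 CPM in WT laparotomy, and the 9 of B and plasma cells to 21.2 and 14.8 CPM and to 15 and 16.6 CPM. Pan-leukocyte genes (10) lay close together, at 195 and 155 CPM in KO laparotomy and 147 and 99.8 CPM in WT laparotomy. Ptprc, the defining leukocyte marker, was at 19.5 and 15 CPM in KO laparotomy and 22.6 and 16.5 CPM in WT laparotomy. Erythroid and platelet genes (10) summed to 13.8 and 10.9 CPM in KO laparotomy and 7.67 and 6.84 CPM in WT laparotomy, below the 17.2 to 21.5 CPM of cultures, with all 4 globin genes at 0 in both groups. No marker passed in edgeR; DESeq2 called 2 of 15 endothelial, 2 of 14 lung epithelial and 1 of 11 tested dendritic genes higher, against 2.72% of all genes. Among the 4 laparotomy libraries, the 3 genes that passed in edgeR were higher in those with the higher endothelial, lung epithelial and macrophage sums. In KO controls the endothelial sum was 186 and 582 CPM. There Lama4 stood at 158 and 159, Adamts4 at 103 and 80.4 and Fcgr2b at 23.2 and 28.8 CPM. In WT controls that sum was 288 and 979 CPM. Lama4 was then at 309 and 233, Adamts4 at 107 and 105 and Fcgr2b at 33.5 and 42.9 CPM. The part of endothelial, lung epithelial and macrophage cells in the results was not tested.

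**Figure D5:**
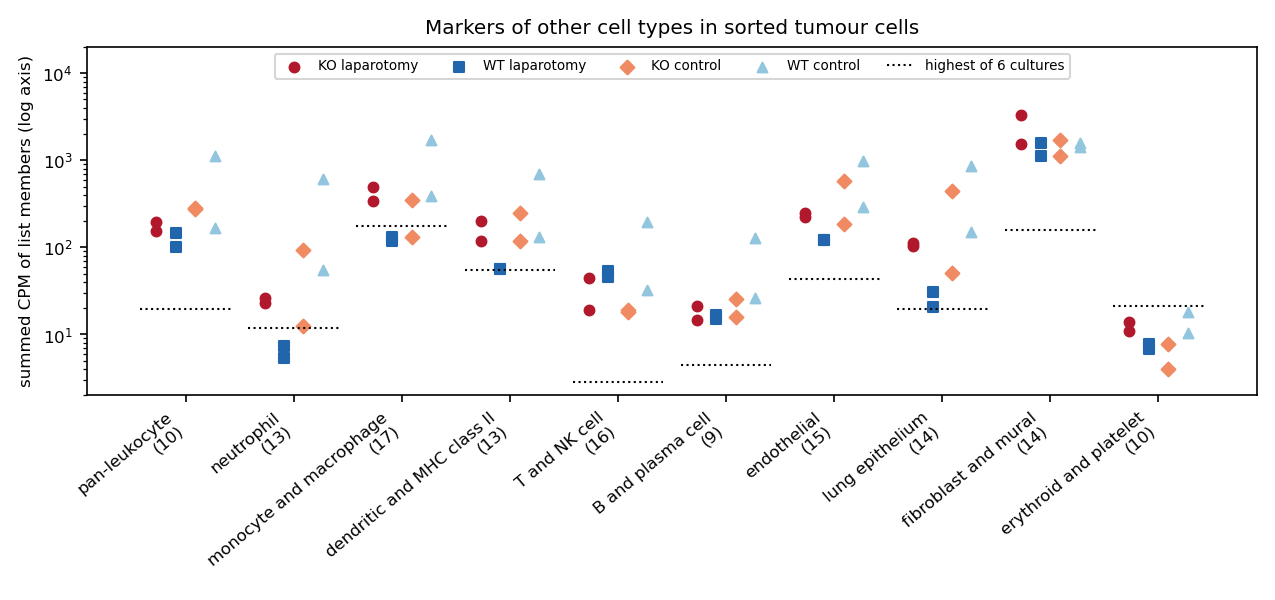
Summed CPM of the markers of 10 other cell types (number of genes in brackets) in each tumour library on a log axis; the dotted line is the highest of the 6 cultures. In lung epithelium the KO laparotomy libraries sit at 111 and 103 CPM and the WT laparotomy libraries at 20.9 and 30.5 CPM, close to the 19.8 CPM line; WT control replicate 2 is the highest in 9 of the 10 lists.

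The genes that NET chromatin moved most clearly in culture had medians near 0 in the tumours. Of the 200 genes most clearly higher with NET chromatin, 196 were tested, with a median log2 fold change of -0.05 between KO laparotomy and WT laparotomy. DESeq2 called 16 of them higher and 13 lower in KO laparotomy, both larger shares than the 2.72% and 1.57% of all genes. The libraries did not overlap in 53 on the higher side and 65 on the lower side, against 26.2% and 26.1% of all genes. Of the 200 most clearly lower with NET chromatin, 198 were tested, with a median of -0.07 and with 6 higher and 4 lower calls in DESeq2, shares near those of all genes. Ogt, Ero1l and Kdm3a, which had lower values in KO laparotomy, were higher with NET chromatin in culture, at 890 ± 97.9, 1860 ± 340 and 386 ± 75.1 CPM, against 475 ± 11.4, 1090 ± 70.5 and 215 ± 7.71 CPM in control cultures (SD, n = 3 each). All 3 passed in an edgeR fit of the 6 cultures, as did 54.1% of the genes tested there (26.3% higher and 27.8% lower with NET chromatin), with adjusted p-values of 7.15e-08, 2.51e-05 and 2.13e-05. Padi2 also passed there (adjusted p = 2.26e-08), at 10.0 ± 1.09 CPM with NET chromatin against 1.65 ± 0.324 CPM in control cultures, while Padi4 did not pass (adjusted p = 0.669), at 65.3 ± 0.864 CPM against 67.2 ± 4.31 CPM. These genes were picked out after their values were seen, and the directions did not always pair. Phgdh, lower in KO laparotomy, had a log2 fold change of 0.02 with NET chromatin. Cyr61, Creld2, Alox5ap and Fas, higher in KO laparotomy, were also higher with NET chromatin (1.89, 0.79, 0.73 and 0.55). C1ra, Igfbp6 and Ptn, higher in KO laparotomy too, were lower with NET chromatin (-0.64, -0.66 and -1.4).

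The genotype difference with laparotomy was also set against that without surgery. The difference between these 2 differences passed in edgeR for 99 of 14615 genes (0.677%), 60 more positive (0.411%) and 39 more negative (0.267%) with laparotomy, and in all 99 the genotype difference had opposite signs with and without surgery. This compares with 3 genes for the laparotomy contrast and 17 (0.116%) for KO controls over WT controls, 8 higher (0.0547%) and 9 lower (0.0616%). Nfatc4 had the smallest p: its 46.4 and 48.9 CPM in KO laparotomy against 23.6 and 22.4 CPM in WT laparotomy stood beside 8.62 and 8.60 CPM in KO controls against 34.2 and 29.5 CPM in WT controls. The log2 difference of differences was 2.93 ± 0.20 (adjusted p = 0.00631). Igfbp6 had 79.1 and 69.4 CPM in KO controls against 167 and 144 CPM in WT controls (1.99 ± 0.17, adjusted p = 0.0123), and Olfr810 had 4.56 and 3.21 CPM in KO controls against 15.6 and 13.7 CPM in WT controls (3.87 ± 0.34, adjusted p = 0.0123).

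Ankrd1 ran the other way, with 90.1 and 108 CPM in KO controls against 29.1 and 24.6 CPM in WT controls (-3.46 ± 0.32, adjusted p = 0.0123). Lama4 completed the 5 genes of smallest p (2.97 ± 0.27, adjusted p = 0.0123). Of the hypoxia list only Kdm3a passed this test (-1.18 ± 0.14, adjusted p = 0.0201); Ero1l, whose controls did not differ by host, did not (-1.0 ± 0.19, adjusted p = 0.0617). In the eicosanoid list Ptgs1 and Alox5ap both passed: Ptgs1 was at 4.75 and 6.08 CPM in KO controls against 58.6 and 26.1 CPM in WT controls. No gene of cholesterol synthesis, interferon response or MHC class I presentation passed it. The count leaned on single libraries: it was 0 without WT laparotomy replicate 2, 1 without WT laparotomy replicate 1 and 344 without WT control replicate 1.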

How the data were processed

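RNA counts per gene were deposited per library, in STAR's count format (the unstranded column was used); reads were trimmed with Trimmomatic and aligned with STAR to mm10, per the submitters' processing notes, with versions not given in the sources used here. RNA was total RNA from TRIzol, per the labels' protocols. The rows that name no gene entered neither library sizes nor tests; in the 4 laparotomy libraries unmapped reads came to 4.00 to 10.3% and reads in no feature to 12.7 to 14.6%. The total on the first strand column was 1.09 to 1.18% of that in the unstranded one.

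Counts of the 8 tumour libraries in 4 groups were filtered with filterByExpr, scaled by TMM and fitted with edgeR 4.0.16 (quasi-likelihood, robust, in R 4.3.3), with Benjamini-Hochberg adjustment over 14615 genes and a threshold of 0.05. DESeq2 1.42.0 was the alternative tool. Every adjusted p without a tool's name is edgeR's. The common biological coefficient of variation was 0.278. CPM values are scaled by TMM; counts of PCR reads without molecular identifiers are not independent molecules. Coordinates are GENCODE vM21 (GRCm38), which matched 80 of 81 named genes.

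Named genes were those past the threshold at a mean of at least 5 CPM without overlap, up to 15 a direction, filled up to 10 a direction by smallest p (predicted genes left out), with Padi4, the 2 members of smallest p in each list and the 5 genes of smallest interaction p. Other list members were named after their values were seen. The members and lists were chosen with earlier results of these data known. Some list members are not reported here by name.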

Additional observations from a re-analysis of the deposited data

Results flagged for a closer look

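The edgeR test of the difference between the 2 differences over 8 libraries passed for 99 genes, a count that leaned on single libraries. In each value that follows, the log2 difference of KO over WT without surgery was subtracted from that with laparotomy. Among genes with higher values in KO laparotomy, it was 2.97 for Lama4 (adjusted p = 0.0123), made of 2.20 with and -0.77 without laparotomy. It was 2.38 for Fcgr2b, 1.58 for Adamts4, 2.36 for the complement protease C1ra and 1.35 for endothelial Ecscr. Olfr810 (3.87), Has1 (4.99), Igfbp6 (1.99) and Nfatc4 (2.93) had log2 differences without surgery of -1.91, -2.19, -1.07 and -1.88.

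Among genes with lower values in KO laparotomy, the log2 difference of differences was -1.16 for Ogt, -2.68 for Nexn, -1.18 for Kdm3a and -1.60 for Appl2. For Ankrd1 it was -3.46, made of -1.57 with and 1.89 without laparotomy. Slc14a1 (-6.42) rests on low levels in KO laparotomy (1.95 and 2.97 CPM) and in WT controls (0.731 and 2.04 CPM). Plac1 (-7.60) rests on low levels in KO laparotomy, and its fitted value depends on the prior count, which was not varied here.

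Of list members, Alox5ap had 2.83, Ptgs1 5.45, Creld2 1.44 and Fas 1.40. The surface protein Thy1, known from T cells and fibroblasts, had 4.16, made of 0.68 with and -3.48 without laparotomy. WT control replicate 2, with its high sums of leukocyte and lung markers, enters all these values, and its part in them was not tested; without it the count was 165.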

How the results depend on the processing

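Against 3 genes for KO laparotomy over WT laparotomy, DESeq2 called 566, the edgeR fit without a filter 152, the 4 laparotomy libraries alone 220 and the replicate block 1. Against 99 for the difference of differences, DESeq2 called 1144, no filter gave 399 and the replicate block 56. Leaving out each library in turn gave 0 to 121 and 0 to 344. Without both control libraries with the most lung markers, an alternative chosen after seeing the data, the counts were 264 and 504. Other scalings, a filter at 1 CPM in 2 libraries and the strand-specific column stayed within 1.5 times. Fcgr2b did not pass with library totals as the scaling (edgeR adjusted p = 0.0535) or with that filter (0.0615). With the replicate block neither Fcgr2b nor Adamts4 passed (both 0.0803). The cause of these differences was not tested.

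The labels do not say that replicate numbers pair libraries, and the deviations of same-numbered libraries correlated between -0.122 and 0.357 over the 6 pairs of groups, so the block rests on shared numbers alone. Of 1366 values of 81 named genes under the alternatives, 1131 kept their direction and side of the threshold, 212 came to pass it, 22 ceased to pass it and 1 lost its direction: the log2 value of Gp9, a platelet gene, ran from 0 without KO laparotomy replicate 2 to 5.28 without KO laparotomy replicate 1. Of 578 list medians, 67 moved by more than the spread and 4 turned in sign. With 2 libraries a group, single libraries decided the edgeR calls.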

Other observations

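Xist, the RNA of the inactive X chromosome in female cells, was at 9.68 and 2.63 CPM in KO laparotomy and 75.0 and 53.8 CPM in WT laparotomy, against 28.1 and 17.0 CPM in KO controls and 37.7 and 6.07 CPM in WT controls. Its log2 fold change was -3.39 ± 1.00 (edgeR adjusted p = 0.26; DESeq2 0.034). The Y-linked gene Ddx3y was at 4.974 and 4.248 CPM in KO laparotomy and 1.874 and 2.11 CPM in WT laparotomy. It reached 28.395 CPM in WT control replicate 2. The Y-linked genes Eif2s3y, Kdm5d and Uty overlapped between the laparotomy groups. Eif2s3y was at 2.285 and 0.607 CPM in KO laparotomy and 1.22 and 1.386 CPM in WT laparotomy. Kdm5d was at 1.277 and 0.742 against 0.784 and 0.945 CPM, and Uty at 1.21 and 0.27 against 0.523 and 0.85 CPM. These genes were looked at after their values were seen, and the sex of the hosts is not given in the sources used here.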
